A study of Mus musculus with 778 samples.

Results

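The proteasome subunit genes of mouse oocytes were taken from a single-cell RNA-seq count table as every gene whose whole symbol is Psma, Psmb, Psmc or Psmd followed by digits only. The rule found 39 of the 23201 genes in the table, of which 8 are Psma, 11 Psmb, 6 Psmc and 14 Psmd genes. The rule reads symbols alone and used no measured value. The study profiled the chromatin and the transcripts of oocytes as they grow, and the transcript data are described here. Wild-type ICR oocytes were washed free of somatic cells, picked by hand and grouped by diameter. Non-growing oocytes (NGO, under 20 μm) came from female mice 3 to 4 days old. Growing oocytes of 30 to 45 μm (GO1), 50 to 55 μm (GO2) and 60 to 65 μm (GO3) and fully-grown oocytes over 70 μm (FGO) came from female mice 3 to 4 weeks old. Stage and mouse age therefore cannot be told apart in any comparison with NGO.

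Each transcript was tagged with a unique molecular identifier (UMI), so that amplified copies of a molecule were counted once. The table held 223 cells, 46 of them NGO, 51 GO1, 26 GO2, 44 GO3 and 56 FGO. Stage sums were expressed per 1000000 UMIs of the stage (CPM), a share of the mRNA of the stage that says nothing about its amount in an oocyte. Because a UMI stands for a molecule, CPM values were not divided by transcript length, and levels are not ranked between genes. Where 5 values are listed, they follow the order NGO, GO1, GO2, GO3 and FGO. The cell names in the table carry no barcode or library, so cells were not tied to the 4 libraries and each stage was 1 pooled sample with no replicate check and no test, and intervals cover counting error only. Calls of higher or lower needed a 2-fold difference in CPM, with 10 CPM or more in whichever stage was higher. Depth was uneven, and a cell held 540432 UMIs at the median of NGO, 110146 at that of GO1 and 676786, 972294 and 792312 at those of GO2, GO3 and FGO. The 10 deepest cells held 80.4% of all GO1 UMIs and 73.2% of GO2 UMIs, against 42.6% in NGO, 46.7% in GO3 and 49.7% in FGO. A GO1 sum therefore mostly describes its deepest cells, and the mean of CPM over single cells is given beside the sums for subunits at 10 CPM or more whose fold from NGO to GO1 it moves by over 1.5 times, and for some others.

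The 26S proteasome degrades proteins marked with ubiquitin chains. Its barrel-shaped core particle holds a pair of outer alpha rings (Psma), which gate entry, around a pair of inner beta rings (Psmb), of which Psmb5, Psmb6 and Psmb7 cut the substrate. The regulatory particle that caps the barrel consists of a base with a ring of 6 ATPases (Psmc), which unfold substrates and thread them into the core, and non-ATPase subunits (Psmd), and of a lid (Psmd), which removes ubiquitin. Growing oocytes store mRNAs and proteins for meiosis and the early embryo, and proteasome activity is needed for meiotic maturation.

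The cells carried the markers of their label. All 10 oocyte markers, such as the zona pellucida genes and Gdf9, were detected in every stage, with summed levels of 34900, 18606, 20401, 20710 and 25877 CPM from NGO to FGO. The 8 granulosa cell markers summed to 7.62, 26.7, 23.9, 18.6 and 9.67 CPM in the same order, of which Cyp19a1 gave 16.3 CPM in GO1. The 6 stromal markers summed to 7.98 CPM in NGO and to at most 0.653 CPM in the later stages. The 6 blood and immune markers summed to 4.52, 1.64, 1.88, 1.69 and 1.65 CPM, nearly all of it Cd68, which had 4.48 CPM in NGO, while Hbb-b1, Hba-a1 and C1qa were at 0 in all 5 stages, Ptprc had 2 UMIs in GO3 alone and Lyz2 at most 2 UMIs in a stage. The 3 endothelial markers summed to 7.90, 41.8, 42.3, 50.7 and 28.6 CPM. Of these, Tek had 3.29, 4.19, 1.84, 1.89 and 1.93 CPM, Cdh5 was at 0 in all stages but GO3, where it had 1 UMI, and Pecam1, which oocytes also express, reached 48.8 CPM in GO3. The part of other cells in the proteasome values was not tested.

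Proteasome subunit mRNAs made up a nearly constant share of the oocyte transcriptome through growth. All 39 genes together took 1.04%, 1.08%, 1.13%, 1.08% and 1.06% of the UMIs in the 5 stages. By gene, 33 members reached 10 CPM in every stage, Psmd13 and Psmb11 did so in some stages only, and Psma8, Psmb8, Psmb9 and Psmb10 stayed under 10 CPM throughout. Of the 39, 18 were highest in NGO and 12 were lowest there by totals. The 18 include Psma8, Psmb8 and Psmb10, and no such count was made over all genes. Exons of 9 members overlap a gene on the opposite strand and those of 2 a gene on the same strand, with Psma8 not counted. Of these partners in the table none exceeded 6.62 CPM (Armc9, a partner of Psmd1, in GO1). Others, such as Gm12356 opposite Psmd3, were not in the table. Reads shared with processed pseudogenes of subunits may have been split, and how they were counted is not given in the sources used here.

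The largest changes fell in the first step of growth, and few subunits took part in it. Of the 35 subunits at 10 CPM or more in NGO or GO1, Psmb1 was higher in GO1 and Psmb5, Psmd2, Psmd3 and Psmd13 were lower. That is 2.86% higher and 11.4% lower, beside 20.6% higher and 25.7% lower among all 8527 genes at that level. The median log2 change was -0.10 over the subunits and -0.15 over all genes. With the mean over cells in place of the sum, 2 subunits (Psma7 and Psmb1) were higher and 8 (Psmb4, Psmb5, Psmd1, Psmd2, Psmd3, Psmd8, Psmd11 and Psmd13) were lower, beside 22.1% and 34.6% of all genes. All 5 genes called from the sums were among these 10.

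After GO1 no subunit passed the limit between neighbouring stages in the sums over all cells. From GO1 to GO2 this was 0 of 34 subunits in either direction, beside 0.109% of all genes higher and 3.03% lower. From GO2 to GO3 it was 0 of 35, beside 3.34% higher and 1.01% lower, and from GO3 to FGO 0 of 35, beside 2.41% higher and 3.54% lower. Means over cells called Psmd2, Psmd5 and Psmd11 higher in GO2 than in GO1, or 9.09% of 33 subunits, beside 4.16% of all genes higher and 12.3% lower. They called Psmb11 and Psmd13 higher in GO3 than in GO2, or 5.71% of 35, beside 5.09% higher and 1.26% lower. Over the whole of growth, from NGO to FGO, no subunit was called higher and 4 of 35 were lower (Psmb5, Psmd1, Psmd3 and Psmd13), or 11.4%, beside 11.3% higher and 16% lower among all genes. Scaled by TMM factors in place of the totals, Psmd3 and Psmd13 alone were called lower, beside 15.2% of all genes higher and 11.5% lower. In the steps from GO1 to GO2 and from GO2 to GO3, DESeq2 size factors put 0.189% and 2.34% of all genes higher and 1.10% and 1.61% lower, with no subunit called. NGO enters both its comparisons, so the calls against GO1 and FGO are not separate evidence.

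**Figure D1:**
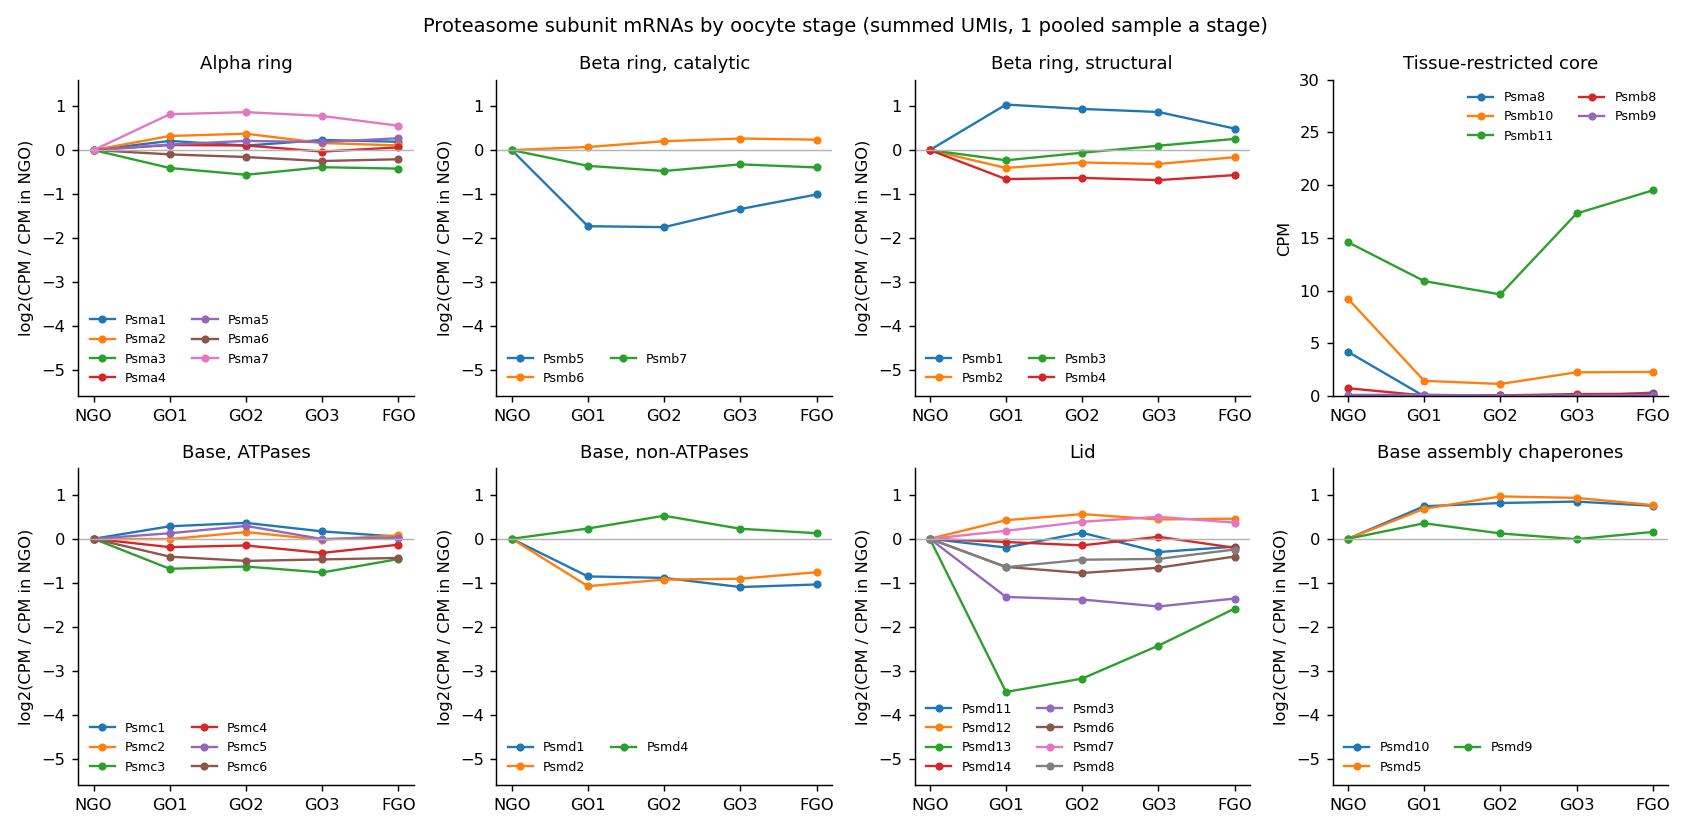
Level of each subunit mRNA in the 5 stages (x axis), from stage sums, grouped by role. The y axis is log2 of the CPM over the CPM in NGO, except for the tissue-restricted subunits, which are in CPM; the lines of Psmd13, Psmb5 and Psmd3 drop furthest at GO1, and from GO1 on most lines run level.

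In the stage sums, core and regulatory particle differed most in their first step. In the mean over cells the core share also fell again in the second step, with 54.6%, 68.3% and 60.2% from NGO to GO2. Core subunits summed to 5657, 6386, 6522, 6410 and 6104 CPM from NGO to FGO. Regulatory subunits summed to 4704, 4369, 4784, 4344 and 4451 CPM in the same order. The symbol rule leaves out Adrm1, another regulatory particle subunit, with 411, 449, 533, 547 and 568 CPM, and Shfm1, which was not in the table. It counts 3 chaperones that assemble the base as regulatory. The core sum was lowest in NGO under every scaling and cell choice tried. The regulatory sum of NGO lay within the range of the later stages by totals, but was lowest of the 5 under TMM scaling (4154 CPM) and highest in the mean over cells (4638 CPM). Core subunits thus held 54.6% of proteasome UMIs in NGO (95% Clopper-Pearson interval 54.4% to 54.8%) and 59.4% in GO1 (59.2% to 59.6%), then 57.7%, 59.6% and 57.8%.

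In the sums, most of this shift went with Psma7. Without Psma7, an alpha ring subunit, the core share was 48.9%, 49.9%, 47.97%, 50.4% and 49.7% from NGO to FGO, and the core sum was 4496, 4343, 4411, 4421 and 4400 CPM. The choice of leaving out Psma7 was made after its values were seen. The median log2 change from NGO to GO1 was -0.10 over the 15 core subunits tested and -0.13 over the 20 regulatory subunits. These medians lay further apart in the mean over cells, at -0.21 and -0.44, and without the 10 deepest cells of each stage, at -0.05 and -0.52, and were 0.06 and 0.03 under TMM scaling.

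Single cells showed a wider gap in GO1 than the sums. The core share of a cell ranged from 51.9% to 57.7% in NGO with a median of 54.4%, and from 53.6% to 82.2% in GO1 with a median of 69.1%. The medians of GO2, GO3 and FGO cells were 58.5%, 59.1% and 58.7%. Regulatory subunits had a median of 4697 CPM over NGO cells, 3216 over GO1 cells and 4698 over GO2 cells, and core subunits 5593, 6980 and 6758 CPM. The GO1 median was thus above that of NGO for the core and below it for the regulatory particle, although the ranges overlapped, with regulatory lows of 1677 CPM in GO1 and 3435 CPM in NGO and highs of 5161 and 5622 CPM. With Psma7 left out, the mean over cells still gave a core share of 57.2% in GO1, beside 48.9% in NGO and 49.1% in GO2.

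**Figure D2:**
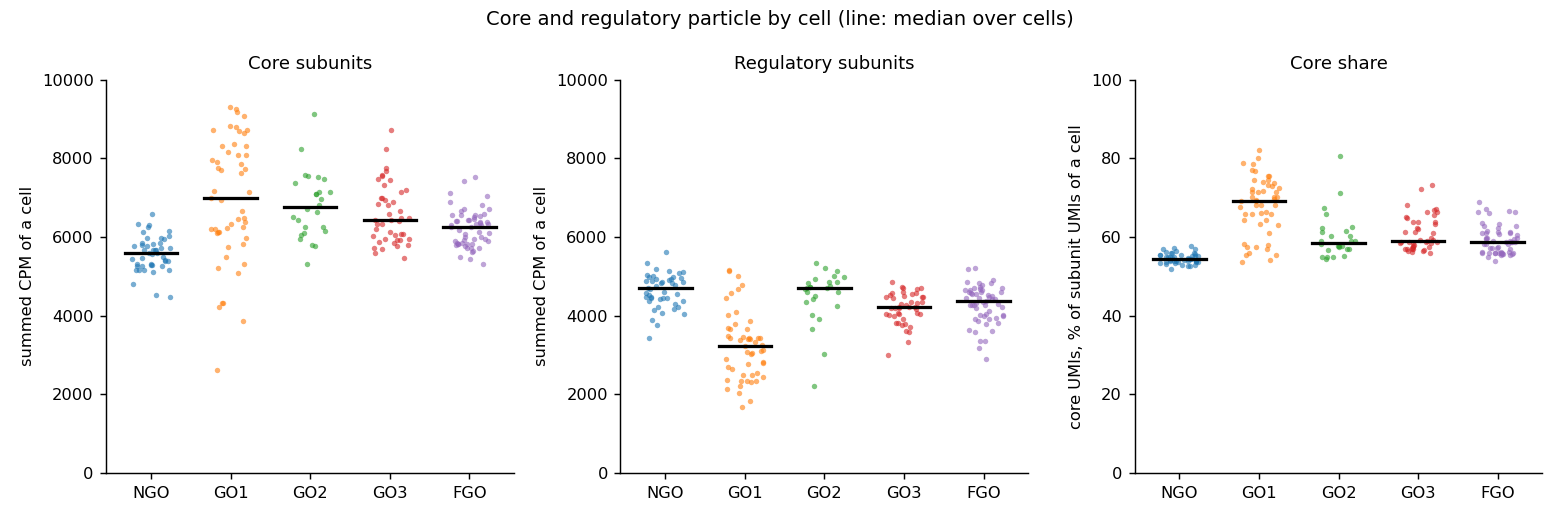
Summed CPM of the 19 core and of the 20 regulatory subunits, and the core share of proteasome UMIs, in each of the 223 cells by stage (points; black line, median over cells). GO1 cells spread most widely, with a median core share of 69.1% beside 54.4% in NGO.

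The regulatory level of a GO1 cell moved with its depth. In the 10 deepest GO1 cells the median was 4350 CPM of regulatory subunits and a core share of 57.8%, and in the other 41 cells 3015 CPM and 70.2%. Spearman's rho between the depth of a cell and its regulatory CPM was 0.28 over 46 NGO cells, 0.68 over 51 GO1 cells, 0.68 over 26 GO2 cells, 0.57 over 44 GO3 cells and 0.43 over 56 FGO cells. For core CPM it was 0.33, 0.17, -0.50, -0.27 and -0.23. For the core share it was -0.02, -0.34, -0.76, -0.48 and -0.42, and thus further from 0 in GO2, GO3 and FGO than in GO1. Between the core and the regulatory sum of a cell, rho was 0.79 in NGO, the single stage where it was high, and 0.14, -0.25, -0.52 and -0.12 afterwards. These values are descriptions, since the sums of a cell share its depth and may share its library, and the part of depth in the GO1 gap was not tested. With each cell thinned to 20000 UMIs, which left out no cell, the core share of the GO1 sum was 68.5%.

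**Figure D3:**
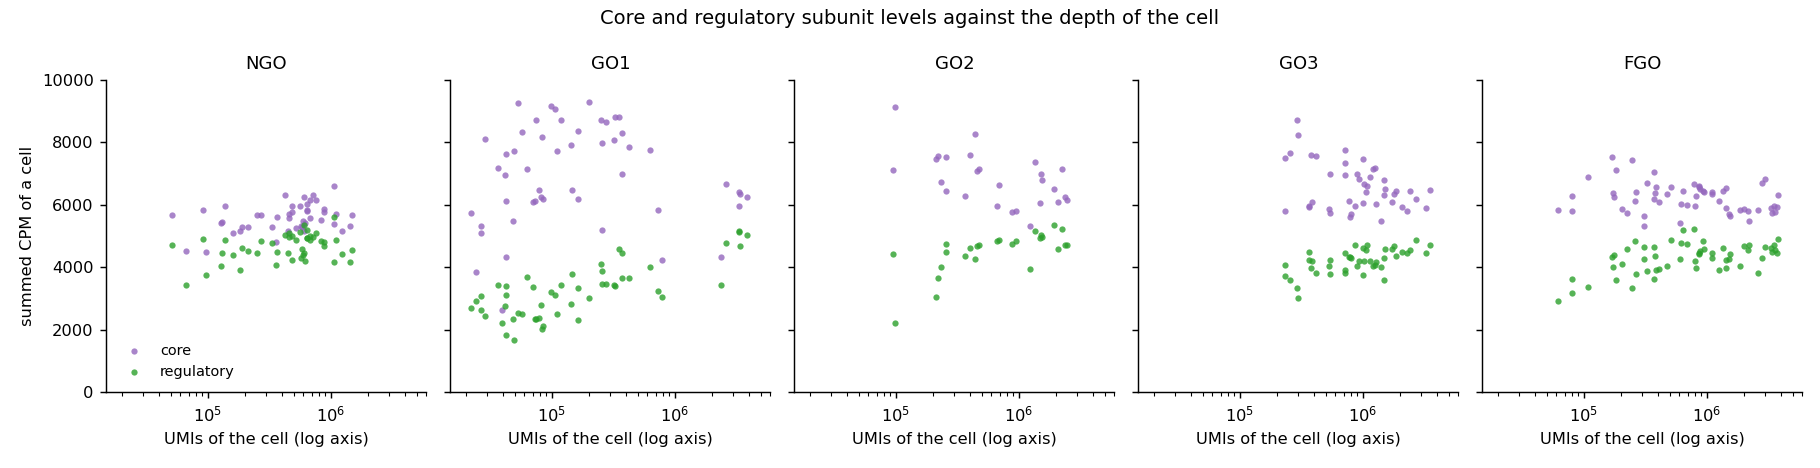
Core and regulatory CPM of each cell (y axis) against its number of UMIs (x axis, log scale), by stage. In GO1 the shallower cells had lower regulatory levels, with medians of 3015 CPM in the 41 shallower cells and 4350 CPM in the 10 deepest.

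Of the alpha ring, the gated entrance to the core, no member passed the limit in any comparison of sums over all cells. Psma7 (chr2:179771078-179777138 in mm9, minus strand) came closest, with 1161, 2043, 2111, 1989 and 1704 CPM from NGO to FGO. All 4 later stages lay above NGO, with a log2 change of 0.82 from NGO to GO1 (1.76-fold, interval 1.73 to 1.78) and of 1.22 in the mean over cells. It was called higher in GO1 in that mean, without the 10 deepest cells of each stage (1.38) and in thinned cells (1.27). In 42 of 51 GO1 cells Psma7 exceeded its level in every NGO cell. Here and below, such counts are given for genes picked by their change between the same cells. They are descriptions, add no separate support and were not made over all genes. Of subunits not called in the sums, Psma2 lay above every NGO cell in 33, Psmb4 and Psmc3 below in 38 and 29. The share of Psma7 in the alpha ring UMIs was 42.2% in NGO and 54.7% in GO1. Psma3 had the lowest change of the ring, with 330 CPM in NGO and 249, 224, 252 and 246 CPM afterwards, a log2 change of -0.41 in the sums and near 0 in the mean over cells, where it was 0.02. The other 5 alpha subunits had log2 changes from -0.10 to 0.32.

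Of the 3 catalytic subunits of the beta ring, Psmb5 alone was called. Psmb5 (chr14:55232644-55236851 in mm9, minus strand), which carries the chymotrypsin-like activity, had 248, 74.7, 73.6, 97.9 and 123.2 CPM from NGO to FGO. NGO stood far above the other stages, of which FGO was the highest. Psmb5 fell by 1.73 on the log2 scale from NGO to GO1 (0.301-fold, interval 0.286 to 0.317), with -2.34 in the mean over cells, and by 1.01 from NGO to FGO (0.496-fold), just past the limit and short of it under TMM scaling (-0.84), under DESeq2 scaling and with 26 cells a stage (both -0.93). Psmb5 in 50 of 51 GO1 cells was below its level in every NGO cell. Psmb6, with caspase-like activity, had 660, 693, 759, 792 and 778 CPM over the same stages. Psmb7, with trypsin-like activity, had 444, 346, 319, 354 and 337 CPM. In the sums Psmb6 was thus lowest in NGO and Psmb7 highest there, with a highest level at most 1.39-fold the lowest, and in the mean over cells Psmb6 too was below NGO in GO1 (log2 change -0.38).

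Promoter sequences were compared because Nfe2l1 and Nfe2l2, transcription factors of proteasome genes, bind antioxidant response elements. RefSeq promoters (GRCm38.p6, 250 bases before to 50 bases after the start) were matched for 32 of the 39 genes and searched on both strands for the core of the element, TGACNNNGC, whose reverse complement is GCNNNGTCA. It was found in 5 of 32 (15.6%), beside 13.99% of all 27025 genes with a promoter. Of these, Psmb5 and Psmb6 are catalytic, Psmc6 is a base ATPase, Psmd12 a lid subunit and Psmd9 an assembly chaperone. Psma8, Psmb1, Psmb2, Psmb7, Psmc3, Psmd3 and Psmd7 had no matched promoter and were not searched. The 30 bases around each match are given 5′ to 3′ on the strand of the gene, with the matching letters in capitals.
Psmb5: cgtgaagttgTGACGTCGCggcgttgccag
Psmb6: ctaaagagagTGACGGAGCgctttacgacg
Psmd9: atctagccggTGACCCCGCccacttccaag
Psmc6: ccagccagtaGCTAAGTCAggcattgctca
Psmd12: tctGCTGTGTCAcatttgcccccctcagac
They lie at chr14:54618023-54618052 (minus strand), chr11:70525338-70525367, chr5:123228149-123228178, chr14:45329587-45329616 and chr11:107479278-107479307 (plus strand) of GRCm38.p6. Counted from the start of the gene, the match began at position -47 in Psmb5, -9 in Psmb6, -31 in Psmd9, -227 in Psmc6 and -247 in Psmd12. From NGO to GO1 these genes had log2 changes of -1.73 (Psmb5), 0.07 (Psmb6), 0.35 (Psmd9), -0.41 (Psmc6) and 0.42 (Psmd12). A part of the element in these changes was not tested. The CCAAT box (CCAAT or its reverse complement ATTGG) was found in 13 of 32 (40.6%), beside 41.1% of all genes. A match is a description of letters, not a binding site, and neither share of the members stood clear of that of all genes.

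Of the 4 structural beta subunits, Psmb1 was the single member called higher in GO1. Psmb1 (chr17:15612685-15635240 in mm9, minus strand) stood at 291, 596, 556, 530 and 408 CPM. NGO was lowest, and GO1 was highest by totals but GO2 by TMM and DESeq2 scaling and with 26 cells a stage. By totals it had a log2 change of 1.04 from NGO to GO1 (2.05-fold, interval 1.99 to 2.11) that lay just past the limit and of 0.49 from NGO to FGO. In 43 of 51 GO1 cells Psmb1 exceeded every NGO cell. When 26 cells were drawn from each stage, Psmb1 was no longer called. Psmb4 went the other way, with 284, 180, 183, 177 and 191 CPM and a log2 change from NGO to GO1 of -0.66 in the sums and of -1.07 in the mean over cells, where it was called lower. Psmb2 and Psmb3 changed by -0.41 and -0.23.

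The 5 tissue-restricted core subunits were scarce in oocytes. Psmb8, Psmb9 and Psmb10 replace the catalytic subunits in the immunoproteasome of immune and interferon-treated cells. Psmb8 and Psmb9 stayed under 1 CPM in all stages, with highs of 0.754 and 0.150 CPM. Psmb10 had 9.25, 1.46, 1.16, 2.27 and 2.30 CPM from NGO to FGO, and 39 of 46 NGO cells but 13 of 51 GO1 cells had a UMI of it. At 20000 UMIs a cell this was 10 and 0 cells. Psma8, the alpha subunit of the testis, had 4.21 CPM in NGO, 0 UMIs in GO1 and GO3, 2 UMIs in GO2 and 22 UMIs in FGO. A count of 0 in GO1 allows up to 3 UMIs, or 0.112 CPM, and in all 5 stages Psma8 lay below the level at which calls were made. Psmb11, the thymic subunit, had 14.6, 10.9, 9.65, 17.3 and 19.5 CPM, and its sum in NGO lay between those of the growing stages. Its level in GO1 moved with the cells counted, with 4.78 CPM and a log2 change of -1.52 from NGO without the 10 deepest cells of each stage, where it was called lower, as it was with 26 cells a stage (-1.10) and in thinned cells (-1.37), but not in the mean over cells (-0.91).

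**Figure D4:**
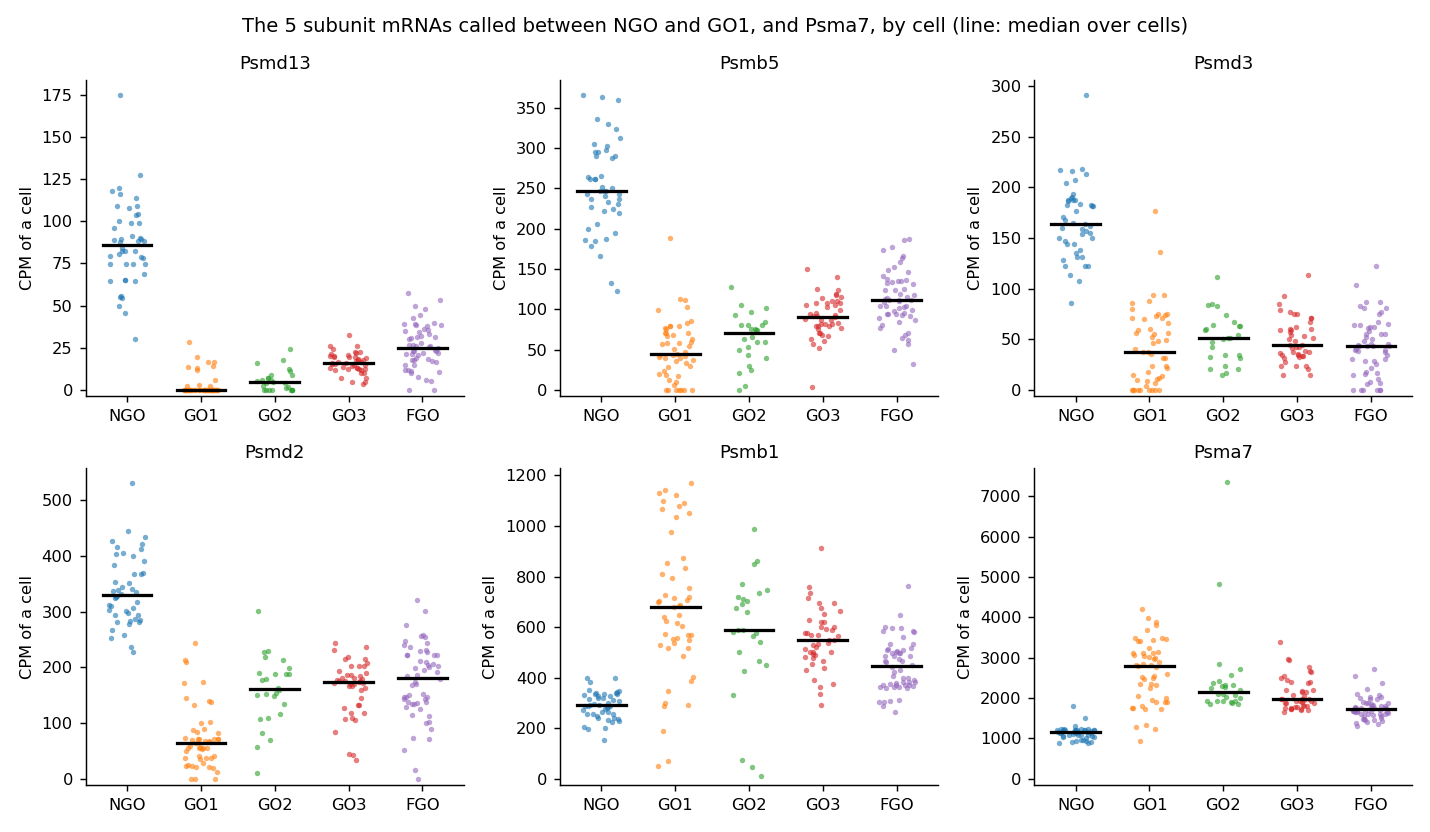
CPM in each cell, by stage, of the 5 subunits called between NGO and GO1 and of Psma7 (points; black line, median over cells; each panel has its own y axis). No GO1 cell reached the NGO range for Psmd13, and Psmb1 and Psma7 were above every NGO cell in 43 and 42 of 51 GO1 cells. The genes were picked by their change between these cells.

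In the regulatory particle, none of the 6 base ATPases passed the limit. Psmc1 had the highest change, with 234 CPM in NGO and 285, 301, 263 and 242 CPM afterwards (log2 change 0.28 from NGO to GO1). Psmc3 had the lowest, with 321 CPM in NGO and 200, 207, 189 and 233 CPM afterwards (-0.68). Their median log2 change from NGO to GO1 was -0.10. In the mean over cells Psmc3 and Psmc4 were lower, at -0.94 and -0.84 (-0.68 and -0.19 in the sums), and Psmc5 and Psmc6 changed sign, from 0.12 to -0.26 and from -0.41 to 0.18.

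Among the base scaffold subunits and the ubiquitin receptor Psmd4, Psmd2 alone was called between NGO and GO1 in the sums. Psmd2 (chr16:20651725-20663487 in mm9, plus strand), a scaffold that docks ubiquitin shuttle proteins, stood at 339, 161, 178, 181 and 200 CPM in stage order. It fell by 1.08 on the log2 scale from NGO to GO1 (0.473-fold, interval 0.456 to 0.491), by 0.92 under TMM and 0.98 under DESeq2 scaling, where it missed the limit, and by 2.21 in the mean over cells, which was 72.96 CPM in GO1. It was not called from NGO to FGO. In 50 of 51 GO1 cells it was below its level in every NGO cell. Psmd1, the other scaffold, had 185, 102.01, 99.7, 86.3 and 89.9 CPM, with a log2 change from NGO to GO1 of -0.86 that missed the limit in the sums. It was called lower in GO1 in the mean over cells (-1.57), without the 10 deepest cells of each stage (-1.79) and in thinned cells (-1.61). From NGO to FGO its change of -1.04 passed the limit, but not under TMM (-0.87) or DESeq2 scaling (-0.96). Psmd4, which binds ubiquitin chains, had 675, 793, 970, 790 and 737 CPM, with a log2 change of 0.23 from NGO to GO1 in the sums but of -0.48 in the mean over cells.

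The lid, which holds the deubiquitinase Psmd14, held the largest change among the 35 subunits tested. Psmd13, a structural lid subunit (chr7:148067867-148084542 in mm9, plus strand), stood at 84.6, 7.55, 9.33, 15.7 and 28.1 CPM in stage order, from 2131, 202, 233, 781 and 1809 UMIs. The level was 11.2-fold lower after the first step and higher at each later stage, but stayed below that of NGO. Psmd13 fell by 3.49 on the log2 scale from NGO to GO1 (0.0893-fold, interval 0.0769 to 0.103), with -4.89 in the mean over cells, and by 1.59 from NGO to FGO. Its median over cells was 85.8, 0, 4.58, 15.9 and 25.1 CPM from NGO to FGO, and in all 51 GO1 cells it was below its level in every NGO cell. All 46 NGO cells and 12 of 51 GO1 cells had a UMI of Psmd13, and at 20000 UMIs a cell 42 and 3 of them did. In the 10 deepest GO1 cells its level was 9.06 CPM, and in the other 41 it was 1.34 CPM. Exons of Psmd13 overlap those of Sirt3 on the opposite strand, and whether the counts kept strands apart is not given in the sources used here. The level of Sirt3 was 4.64 CPM in NGO and 4.07 in GO1.

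Psmd3, another lid subunit (chr11:98543868-98557293 in mm9, plus strand), stood at 164, 65.6, 62.98, 56.5 and 63.98 CPM. It fell by 1.32 on the log2 scale from NGO to GO1 (0.40-fold, interval 0.378 to 0.423) and by 1.36 from NGO to FGO, with -1.95 for both in the mean over cells, and the 4 later stages lay close together. In 45 of 51 GO1 cells it was below its level in every NGO cell. Psmd12 had the highest change of the lid, with 259, 347, 382, 351 and 355 CPM (log2 change 0.42 from NGO to GO1). Psmd14 differed little between stages, with 79.3, 75.4, 71.4, 81.8 and 68.8 CPM. Psmd8, with 328, 209, 236, 239 and 277 CPM, and Psmd11, with 168.98, 147.1, 185.9, 136.99 and 149.3 CPM, were not called in the sums but were lower in GO1 than in NGO in the mean over cells (log2 changes -1.36 and -1.12). Lid subunits thus ranged from -3.49 to 0.42 on the log2 scale, with a median of -0.42 from NGO to GO1.

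The 3 chaperones that assemble the base, which leave the finished proteasome, were all above NGO in the GO1 sum. Psmd10, also called gankyrin, had 160 CPM in NGO and 268, 282, 288 and 270 CPM afterwards (log2 change 0.74). Psmd5 had 128.8, 206, 251, 245 and 219 CPM (0.68), and Psmd9 had 176, 224, 191, 174 and 196 CPM (0.35). None passed the limit in the sums. In the mean over cells Psmd10 was at 0.32 from NGO to GO1, whereas Psmd5 and Psmd9 turned to -0.30 and -0.40. Thinned cells called Psmd10 higher in FGO than in NGO (1.14, beside 0.75 in the sums). Psmd5 was called higher in GO2 than in GO1 in the mean over cells and without the 10 deepest cells of each stage. Over the 51 GO1 cells, rho with depth was 0.72 for Psmd10, 0.67 for Psmd5 and 0.25 for Psmd9, and subunits of other roles, such as Psmd11 (0.74) and Psmb6 (0.69), had values as high as the first pair.

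**Figure D5:**
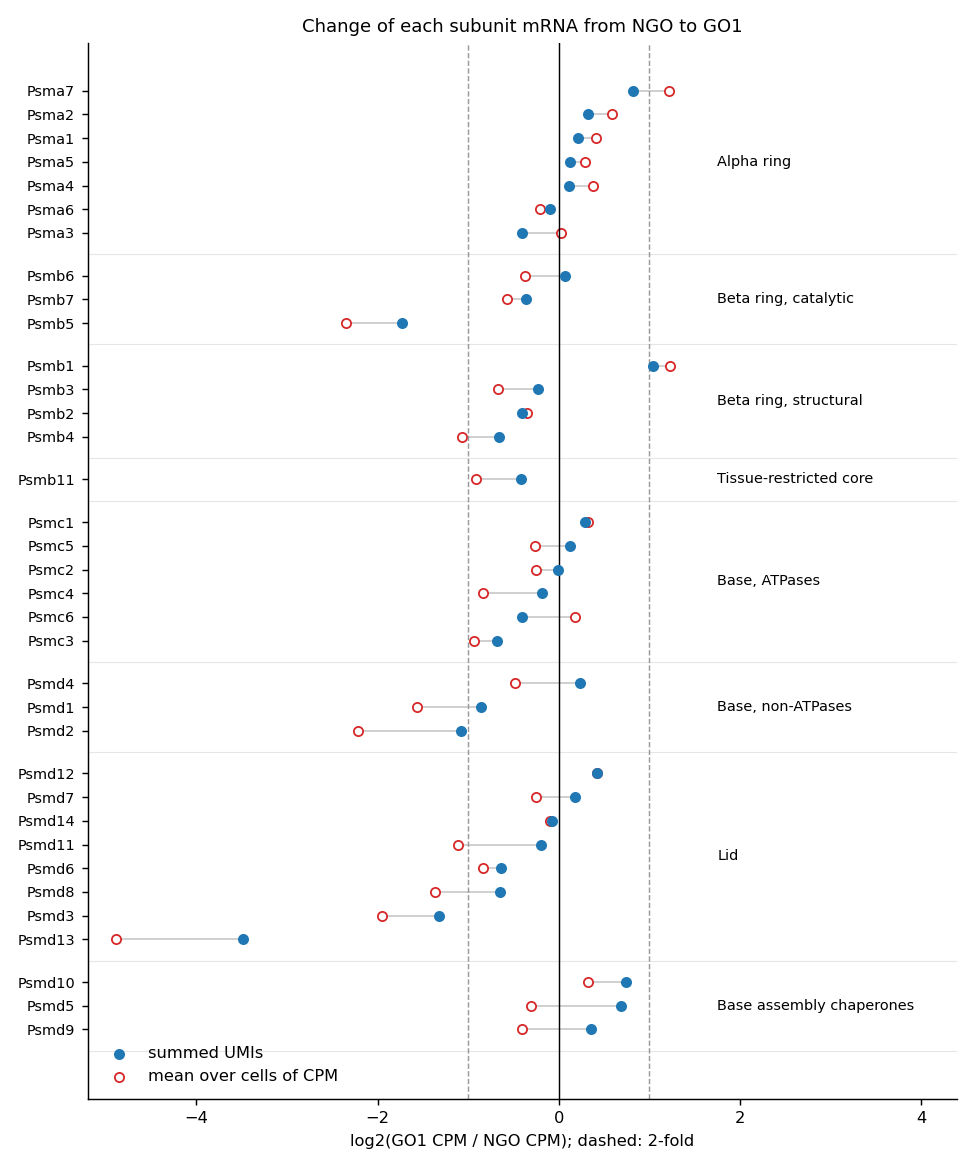
Log2 change from NGO to GO1 (x axis) of the 35 subunits at 10 CPM or more, by role, from UMIs summed over cells (filled) and from the mean over cells of CPM (open); dashed lines mark 2-fold. Psmd13 lies furthest left at -3.49 and -4.89, and open symbols lie left of the filled ones for most regulatory subunits.

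Genes that serve the proteasome were followed as a list of 30 in the table. It held Adrm1, assembly factors of the core, alternative caps, deubiquitinases, ubiquitin, activating enzymes, shuttles and transcription factors. From NGO to GO1, 3 of 26 at 10 CPM or more were higher and 8 lower, or 11.5% and 30.8%, beside the 20.6% and 25.7% of all genes, and the median log2 change was -0.25. From NGO to FGO 1 of 24 was higher and 5 lower, or 4.17% and 20.8%, beside 11.3% and 16% of all genes. In the steps after GO1, 1 of 24 was lower from GO1 to GO2 and 1 of 24 from GO3 to FGO, or 4.17% each, beside 3.03% and 3.54% of all genes. Ubb, a polyubiquitin gene, had 5360, 6935, 9545, 8830 and 8514 CPM from NGO to FGO and was not called. Its level was thus lowest in NGO and highest in GO2.

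Upstream of the proteasome, the main ubiquitin-activating enzyme Uba1 had 197 CPM in NGO, 91.02 in GO1 and 75.8 in FGO, with a log2 change of -1.12 from NGO to GO1, short of the limit under TMM scaling (-0.96) and with 26 cells a stage (-0.76), and of -1.38 from NGO to FGO. Uba6, the second such enzyme, had 18.3 CPM in NGO and 9.16 in GO1 (-1.001). It was called lower in no other scaling or cell choice tried, with -0.30 in the mean over cells and the opposite direction, 1.10, in thinned cells. The segregase Vcp, which extracts ubiquitinated proteins, had 180 CPM in NGO, 43.2 in GO1 and 63.9 in FGO (-2.06 from NGO to GO1). The shuttle Ubqln2 had 1.47 CPM in NGO, 22.6 in GO1 and 7.01 in GO2, a log2 change of 3.94 and then of -1.69. The proteasome-bound deubiquitinase Usp14 had 80.4 CPM in NGO and 37.8 in GO1 (-1.09, short of the limit at -0.93 under TMM scaling, -0.99 under DESeq2 scaling, -0.95 in the mean over cells and -0.89 in thinned cells).

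Among assembly factors and caps, Psmg2 moved most. It pairs with Psmg1 to build the alpha ring and had 38.5, 3.44, 3.24, 6.60 and 11.6 CPM from NGO to FGO, and its log2 change of -3.49 from NGO to GO1 was as large as that of Psmd13 in the sums, but was -2.40 in the mean over cells. Its partner Psmg1 had 81.2, 133.3, 162, 175 and 123.9 CPM and was not called. Psme4, an alternative cap known from spermatogenesis, had 10.8 CPM in NGO, 53.98 in GO1 and 24.6 in FGO (log2 changes 2.33 and 1.20 against NGO). Psme2, of the interferon-inducible cap, had 53.8 CPM in NGO, 23.9 in GO1 and 49.1 in FGO (-1.17 from NGO to GO1). Of the transcription factors, Nfe2l2 had 5.20, 14.9, 14.9, 15.8 and 6.36 CPM from NGO to FGO, with a log2 change of 1.52 from NGO to GO1 and of -1.31 from GO3 to FGO (-0.99, short of the limit, in thinned cells).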

How the data were processed

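Per the study's methods, the authors sorted reads by cell barcode, aligned them with Tophat v2.0.12 to the mm9 transcriptome, removed duplicates by UMI and kept 223 cells within limits on detected genes, transcripts and spike-ins. The deposited values are raw counts of UMIs per gene and cell, and no 2 cells had identical counts. Stage totals were 25198132 (NGO), 26752883 (GO1), 24976634 (GO2), 49822036 (GO3) and 64311908 UMIs (FGO).

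Counts were summed by stage and divided by the stage total. Calls needed a 2-fold difference and 10 CPM. Fold intervals are exact binomial at 95%. Members and gene lists were chosen with earlier results of these data known. Named were the 3 largest rises and falls from NGO to GO1, all called members, the extremes of each role, catalytic, tissue-restricted and chaperone subunits, and up to 12 called pathway genes, some of which are not reported here. Psmb2, Psmb3, Psmd8, Psmd11, Psmd14, Ubb, Psmg1 and Nfe2l1 were named after their values were seen. Positions are from GENCODE vM1 (mm9). Of 32 pathway genes, 30 were in the table. The code that makes the calls was checked on simulated counts with known folds, which is no test of the calls themselves. No doublet caller was run on hand-picked cells. The chromatin and methylation data were not analysed here. A deposited barcode list gives the barcodes each library used but names no cell, and was not used.

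Alternatives were TMM (edgeR 4.0.16) and DESeq2 1.42.0 size factors, used for scaling only, means over cells, sums without the 10 deepest cells, 26 cells a stage, cells thinned to 20000 UMIs, other limits (1.5-fold, 50 CPM, none) and other subunit sets. Python 3.11.15, pandas 2.3.3, scipy 1.17.1 and R 4.3.3 were used.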

Additional observations from a re-analysis of the deposited data

How the results depend on the processing

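Psmb5, Psmd3 and Psmd13 were called lower in GO1 than in NGO under every scaling and cell choice tried. A GO1 cell held 110146 UMIs at the median, the lowest of the 5 stages, and without a library for each cell the spread between libraries is unknown. No paired analysis was possible because the cells carry no library or replicate number. The cause of the changes below was not tested.

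Shares in brackets are those of all genes called under the same setting. Means over cells gave 2 subunits higher and 8 lower from NGO to GO1 (22.1% and 34.6%), 3 higher from GO1 to GO2 (4.16%) and 2 higher from GO2 to GO3 (5.09%), core shares of 68.3%, 60.2%, 61.1% and 59.2% from GO1 to FGO, and a regulatory median log2 change of 0.50 from GO1 to GO2. Sums without the 10 deepest cells gave 2 higher and 10 lower from NGO to GO1 (21.6% and 37.6%), then 3 and 1 higher in the next steps (9.43% and 5.88%), core shares of 69.6%, 59.5%, 61.5% and 58.5% from GO1 to FGO, and medians from GO1 to GO2 of -0.15 (core) and 0.36 (regulatory). Thinned cells gave 2 higher and 10 lower from NGO to GO1 (22.9% and 34.8%). In each of the next 2 steps 1 was higher (8.32% and 12.2%). From NGO to FGO thinned cells called Psmd10 higher (11.8%) and Psmb5, Psmb10, Psmd1, Psmd3 and Psmd13 lower (22.1%). Their core shares were 68.5%, 60.1%, 61.9% and 58.96% from GO1 to FGO. The core median was 0.19 from GO2 to GO3 and the regulatory median 0.58 from GO1 to GO2. Thinning also turned Uba6 from NGO to GO1 to 1.10. With 26 cells a stage, 0 subunits were higher in GO1 (23.2%), the GO3 core share was 59.4% and the regulatory median from GO1 to GO2 was 0.18.

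A 1.5-fold limit gave 4 higher and 9 lower from NGO to GO1 (29.96% and 36.4%), 2 higher from GO2 to GO3 (10.5%), 1 higher from GO3 to FGO (9.73%) and 2 higher and 5 lower from NGO to FGO (21.1% and 30.03%). Without a filter, 7 were lower in GO1 (31.02%) and 7 in FGO (23.7%) than in NGO, 1 was higher and 1 lower in the step from GO1 to GO2 (8.15% and 15.6%) and in that from GO2 to GO3 (16.6% and 8.76%), and 1 was higher in FGO than in GO3 (14.9%).

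The median change of all genes from NGO to GO1 was -0.15 by totals and 0.05 by TMM. TMM and DESeq2 factors both left 2 subunits lower from NGO to FGO (11.5% and 13.5%). Core medians were 0.16 and 0.18 from GO1 to GO2 and -0.12 and -0.18 from GO2 to GO3, and regulatory medians 0.27 and 0.30, and -0.21 and -0.28. The core median from NGO to FGO was 0.28 by TMM. Core shares without tissue-restricted subunits and chaperones were 57.04%, 63.5%, 61.6%, 63.7% and 61.8% from NGO to FGO, and without Psma7, an alternative chosen after seeing the data, 48.9%, 49.9%, 47.97%, 50.4% and 49.7%.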
